A study of Mus musculus with 10 samples.

Results

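The genes described here are 9 transcripts of negative feedback in Ly6G+ cells: Zfp36, Zfp36l1 and Zfp36l2, which encode mRNA decay factors, and Dusp1, Dusp2, Dusp4, Dusp5, Dusp6 and Dusp16, which encode phosphatases of the MAP kinases. They were chosen by name, and all 9 were among the 28185 genes of the table and among the 11549 that averaged 10 normalized counts or more and were tested. The cells came from male C57Bl/6J mice, 12 to 16 weeks old, taken on day 3 of an infarction made by tying off the left coronary artery, which every mouse had undergone, so no group is free of infarction. MI (n = 3) and MI + MSC (n = 3) are cells from the infarcted heart of mice without MSC and of mice given syngeneic bone marrow mesenchymal stromal cells (MSC) under the skin at 3 sites on the day of infarction. Blood (n = 2) and Blood + MSC (n = 2) are the cells of the circulation of the same kinds of mice. Mouse neutrophils carry Ly6G on their surface, and cells were enriched with beads against it after enzymatic digestion of the heart, while blood was not digested. The study's methods name single animals as the unit, but the labels do not tie a library to an animal, so p-values measure the spread between libraries. By those methods blood was drawn before the heart was harvested, so heart and blood libraries may share mice, and they were fitted as independent. Libraries are called by group and number, as in MI 13.

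The results turn mostly on 4 of the genes, placed here on build GRCm39. Zfp36 (ENSMUSG00000044786) lies at chr7:28076209-28079710 on the minus strand, Dusp1 (ENSMUSG00000024190) at chr17:26724564-26781102 on the minus strand, Dusp2 (ENSMUSG00000027368) at chr2:127177957-127180296 on the plus strand and Dusp5 (ENSMUSG00000034765) at chr19:53517532-53530862 on the plus strand. Counting was by strand, which separates overlapping genes on the opposite strand. The annotated span of Dusp1 holds Gm50274 and Gm50275 on its own strand, and that of Dusp6 holds Gm56968, so their reads can be less certain.

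Mitogen-activated protein kinases (ERK, p38 and JNK) relay inflammatory signals to transcription and mRNA stability. Dual-specificity phosphatases remove the activating phosphates from these kinases, and many of them are themselves induced by the pathway they shut off. ZFP36, also called tristetraprolin, and its relatives bind AU-rich elements in the 3′ UTR of cytokine mRNAs and recruit the machinery that removes the poly(A) tail. The p38 pathway restrains ZFP36 by phosphorylation, so DUSP1 and ZFP36 act in sequence in ending the production of TNF and related cytokines. In neutrophils, which carry little RNA and respond within minutes, both families are among the transcripts induced early.

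The AU-rich heptamer TATTTAT, the core of the site that ZFP36 proteins bind, was searched on the transcript strand of the canonical 3′ UTR of each member (GENCODE, build GRCm39). It was found 3 times each in Zfp36, Zfp36l1, Zfp36l2 and Dusp1, 1 time in Dusp2, and not in the windows of Dusp4, Dusp5, Dusp6 and Dusp16. Therefore 5 of 9 members held it, against 31.3% of 17836 coding genes of the table. The longer nonamer TTATTTATT, which contains the heptamer, was present in 4 members, 2 times in Dusp1 and 1 time in each Zfp36 gene, against 8.75% of those genes. The sites of Zfp36 and Dusp1 are shown because these members had the highest levels, that of Dusp2 because it had the largest differences, and the nonamer sites of the other Zfp36 genes for comparison. The heptamer is in capitals, and positions count from the first base after the stop codon.
Zfp36, 3′ UTR base 575, chr7:28076391-28076419, minus strand: agtgggcccttTATTTATgacgactttat
Zfp36, 3′ UTR base 590, chr7:28076376-28076404, minus strand: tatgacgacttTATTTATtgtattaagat
Zfp36, 3′ UTR base 615, chr7:28076351-28076379, minus strand: agattttatagTATTTATatatattgggt
Zfp36l1, 3′ UTR base 1405, chr12:80154941-80154969, minus strand: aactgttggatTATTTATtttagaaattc
Zfp36l2, 3′ UTR base 822, chr17:84492342-84492370, minus strand: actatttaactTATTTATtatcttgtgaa
Dusp1, 3′ UTR base 104, chr17:26725133-26725161, minus strand: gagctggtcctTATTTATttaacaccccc
Dusp1, 3′ UTR base 393, chr17:26724844-26724872, minus strand: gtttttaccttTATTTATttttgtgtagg
Dusp1, 3′ UTR base 589, chr17:26724648-26724676, minus strand: gtatgtttgttTATTTATgatctgaagta
Dusp2, 3′ UTR base 520, chr2:127180224-127180252, plus strand: acagcactttaTATTTATatagaacattg
The first 2 sites of Zfp36 share bases, with the heptamers starting 15 bases apart. A match of letters is a description and not a measured binding site.

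Promoter windows of 300 bases, 250 before and 50 after the annotated start site, were taken from RefSeq (build GRCm38.p6), which matched 7 of 9 members by symbol, the others being Dusp4 and Zfp36l2. Both strands were searched for the cAMP response element TGACGTCA and its core TGACG, the AP-1 site TGANTCA, the TATA box TATAAA, the Sp1 site GGGCGG, and the CArG box and NF-kB site by their usual patterns. Promoters of Zfp36, Dusp1, Dusp2 and Dusp5 are shown since these members had the same ranking of cardiac libraries, or nearly so, as described further on. Capitals mark CArG boxes in Zfp36 and Dusp5 and the cAMP response element in Dusp1.
Zfp36 promoter, chr7:28379179-28379478, minus strand: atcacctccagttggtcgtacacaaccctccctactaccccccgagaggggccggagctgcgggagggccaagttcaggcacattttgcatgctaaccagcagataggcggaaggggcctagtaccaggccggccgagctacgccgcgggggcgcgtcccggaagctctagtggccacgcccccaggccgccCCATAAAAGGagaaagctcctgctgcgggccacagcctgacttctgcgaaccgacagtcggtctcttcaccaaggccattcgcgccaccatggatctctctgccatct
Dusp5 promoter, chr19:53528895-53529194, plus strand: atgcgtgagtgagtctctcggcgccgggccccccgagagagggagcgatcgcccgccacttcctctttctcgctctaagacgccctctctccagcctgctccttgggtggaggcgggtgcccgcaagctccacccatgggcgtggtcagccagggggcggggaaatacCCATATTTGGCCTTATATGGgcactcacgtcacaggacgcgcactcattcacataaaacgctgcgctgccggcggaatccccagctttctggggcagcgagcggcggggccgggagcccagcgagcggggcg
Dusp1 promoter, chr17:26508423-26508722, minus strand: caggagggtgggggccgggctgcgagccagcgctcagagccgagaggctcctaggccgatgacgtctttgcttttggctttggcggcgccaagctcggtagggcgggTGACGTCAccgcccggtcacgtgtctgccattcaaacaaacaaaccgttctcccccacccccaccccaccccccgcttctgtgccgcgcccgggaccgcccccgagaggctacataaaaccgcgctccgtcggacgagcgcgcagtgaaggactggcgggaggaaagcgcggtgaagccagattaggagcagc
Dusp2 promoter, chr2:127335909-127336208, plus strand: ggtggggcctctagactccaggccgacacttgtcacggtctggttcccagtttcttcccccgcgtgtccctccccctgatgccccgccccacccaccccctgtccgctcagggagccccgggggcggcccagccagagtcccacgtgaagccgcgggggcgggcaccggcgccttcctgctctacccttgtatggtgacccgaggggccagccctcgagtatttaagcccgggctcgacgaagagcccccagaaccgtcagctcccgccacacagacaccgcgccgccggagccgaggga
The window of Dusp5 held 2 CArG boxes, the binding sequence of serum response factor, placed end to end from -82 and from -72 bases of the start site. Zfp36 held 1, from -58. CArG boxes occurred in 1.63% of 32851 windows of the same length. Dusp1 held the palindromic cAMP response element from -143, a sequence present in 1.79% of windows and made of 2 overlapping copies of the core. The window of Dusp2 held no match other than 3 Sp1 sites, found in 35.7% of windows, and 1 core TGACG, found in 20.8%. In Zfp36l1, not printed, an AP-1 site lay from -129 (7.81% of windows) and a TATA box from -29 (13.6%). No NF-kB site was found in the 7 windows, against 4.51% of all. These letters say nothing about which factor acted in the cells.

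Recovered reads on genes ranged from 148594 in MI 13 to 8602711 in Blood + MSC 24. The values are normalized counts, reads divided by the size factor of the library, and 1 read is worth 8.40 normalized counts in MI 13 and 7.07 in Blood 21, the shallowest libraries, against 0.168 to 2.30 in the others. MI 13 stood apart: over the tested genes its correlation with the other cardiac libraries was 0.605 to 0.733, against 0.892 to 0.968 among those 5. The label was checked against 11 neutrophil markers, all with reads in every group, whose summed level was 2547 to 13555 normalized counts in cardiac libraries and 16718 to 51413 in blood. Ly6g itself was low in the heart, at 4.75 to 26.9 normalized counts, against 41.2 to 645 in blood. Markers of other cells were present in the heart: 8 cardiomyocyte markers summed to 3138 to 24250 in the cardiac libraries and to 14.3 to 63.6 in blood, and 8 endothelial markers to 1837 to 2007 in MI and 420 to 791 in MI + MSC. Monocyte and macrophage markers (9 genes) summed to 2639 to 11229 in the heart and 5733 to 8097 in blood, and platelet markers reached 24128 in Blood 21 against 566 to 1051 in the other blood libraries. In such bulk samples, fewer cells of a type and less RNA per cell cannot be told apart.

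Per kilobase of exon, Dusp1 and Zfp36 had the highest levels of the 9, with a mean of the group means of 991 and 631 normalized counts per kilobase. Zfp36l2 followed with 342, Dusp6 with 174, Dusp5 with 105, Zfp36l1 with 75.7, Dusp2 with 55.9, Dusp16 with 16.2 and Dusp4 with 4.1. Dusp1 dephosphorylates p38 and JNK in the nucleus, and Dusp6 is the cytoplasmic phosphatase of ERK. The first 3 places and the last were the same in every group mean, while the places between moved. Dusp5 was at 256 normalized counts per kilobase in MI + MSC and 29.6 in Blood, and Dusp2 at 171 and 3.36, so that in MI + MSC Dusp5, Dusp2 and Dusp6 (169) came 4th, 5th and 6th. The within-library log2 difference between Dusp1 and Zfp36 was 0.53 ± 0.52 (SD over 10 libraries), with Dusp1 higher in 8 of 10, so this order is barely beyond the spread. The steps from Zfp36 to Zfp36l2, from Zfp36l2 to Dusp6 and from Dusp16 to Dusp4 were in the same direction in 10 of 10 libraries. The pairs Dusp6 and Dusp5, Dusp5 and Zfp36l1, Zfp36l1 and Dusp2, and Dusp2 and Dusp16 did not differ beyond their SD over libraries.

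**Figure D1:**
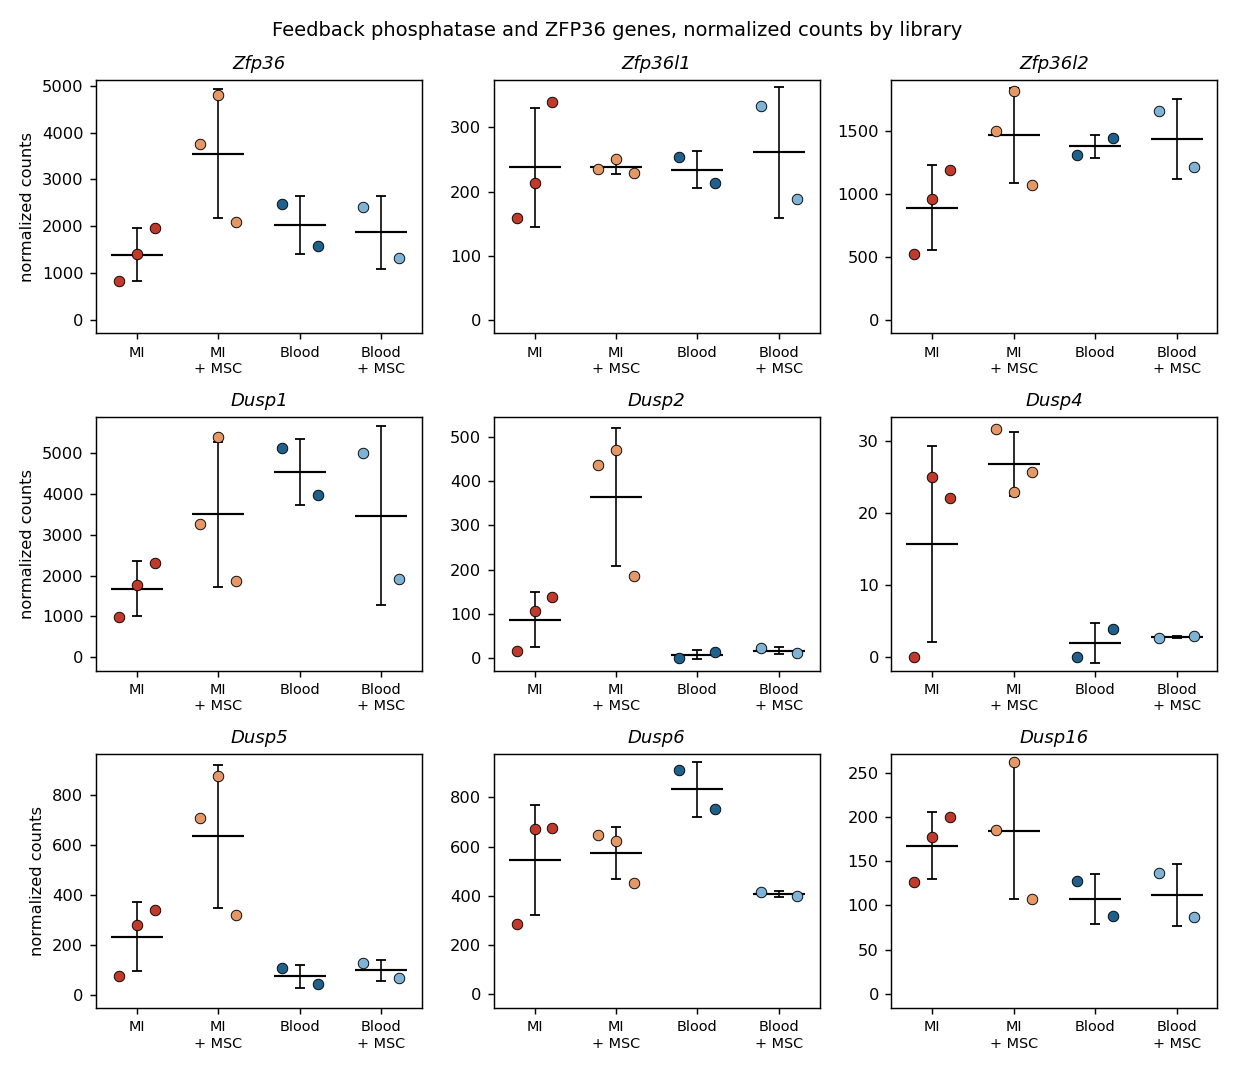
Normalized counts of each gene (vertical axis, linear, a scale for each panel) in the 4 groups (horizontal axis). Points are libraries, horizontal bars are group means and vertical bars 1 SD (n = 3, 3, 2 and 2). Dusp2 lies between 16.8 and 471 normalized counts in the heart and between 0 and 22.6 in blood, while Zfp36l1 has group means of 234 to 261.

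The first comparison asked how MSC treatment went with these transcripts in cells of the infarcted heart. The fitted log2 fold change of MI + MSC over MI was above 0 for all 9 members, with a median of 1.01 against -0.01 over all tested genes, but no member passed the threshold of a Benjamini-Hochberg adjusted p under 0.05 and a log2 fold change of at least 0.5. Without MI 13, a library that stands apart, 6 of 9 were above 0 and the median was 0.42. Of all tested genes, 0 (0%) passed, with limma. At an unadjusted p under 0.05 there were 3 members, Zfp36, Dusp2 and Dusp5, and 925 genes in all (8.01%). On recovered reads, edgeR and DESeq2 called none of the members and limma-voom with quality weights called Dusp2. Over all tested genes these tools called 0, 79 and 261.

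Zfp36, the mRNA decay factor, was at 832, 1405 and 1954 normalized counts in MI and at 3760, 4808 and 2083 in MI + MSC. The groups did not overlap, although the lowest MI + MSC library lay just above the highest MI library. The means were 1397 ± 561 and 3550 ± 1375 (SD, n = 3 each), a log2 fold change of 1.35 (SE 0.49, 95% confidence interval 0.26 to 2.43, limma adjusted p = 0.585). Without MI 13 the log2 fold change was 1.02.

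Dusp2, a nuclear phosphatase of ERK and p38 that is found mainly in leukocytes, was at 16.8, 107 and 138 normalized counts in MI and at 436, 471 and 186 in MI + MSC. Again the groups did not overlap, and the value in MI 13 rested on 2 reads. The means were 87.1 ± 62.9 and 364 ± 155, with a log2 fold change of 2.36 (SE 0.84, 95% confidence interval 0.53 to 4.2, limma adjusted p = 0.567). This was above 99.9% of the tested genes, and it was 1.46 without MI 13. In limma-voom it was 1.71 with an adjusted p of 0.0459. Zfp36 and Dusp2 were the 2 members whose MI + MSC libraries all lay above the MI libraries, as did 7.05% of tested genes, while 0 members lay entirely below, against 9.6%.

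Dusp5, a nuclear ERK phosphatase, was at 75.6, 280 and 341 normalized counts in MI and at 709, 877 and 319 in MI + MSC. Libraries 15 and 17 stood above all MI libraries, and library 18 lay inside their range. The log2 fold change was 1.58 (SE 0.59, limma adjusted p = 0.588), and 0.91 without MI 13. Dusp1 was at 983, 1767 and 2296 in MI against 3255, 5379 and 1858 in MI + MSC, with the same overlap through library 18 (log2 fold change 1.01, SE 0.57, limma adjusted p = 0.65), and its log2 fold change was 0.66 without MI 13 and 0.63 without MI + MSC 17. Zfp36l2, the relative of Zfp36 best known from lymphocyte development, was at 521, 954 and 1185 in MI against 1499, 1816 and 1066 in MI + MSC (0.77, SE 0.39, limma adjusted p = 0.642), and 0.42 without MI 13.

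The remaining members showed smaller or less certain differences. Zfp36l1 had equal means, 238 ± 92.7 in MI and 238 ± 11.2 in MI + MSC, with a 95% confidence interval of the log2 fold change from -0.63 to 0.77. Dusp6 measured 286, 673 and 677 in MI against 646, 624 and 451 in MI + MSC, an interval of -0.63 to 0.95. Dusp16, a JNK and p38 phosphatase of the cytoplasm, was at 126, 177 and 200 in MI against 185, 262 and 107 in MI + MSC, an interval of -0.71 to 0.85. These 3 members were below 0 without MI 13, at -0.18, -0.25 and -0.12. Dusp4, a nuclear ERK phosphatase, was not detected in MI 13, where 0 reads allow up to 25.2 normalized counts, and was at 25.0 and 22.1 in MI 19 and MI 20 against 31.8, 22.96 and 25.8 in MI + MSC, from 10 to 47 reads. Its log2 fold change of 1.39 was 0.16 without MI 13.

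**Figure D2:**
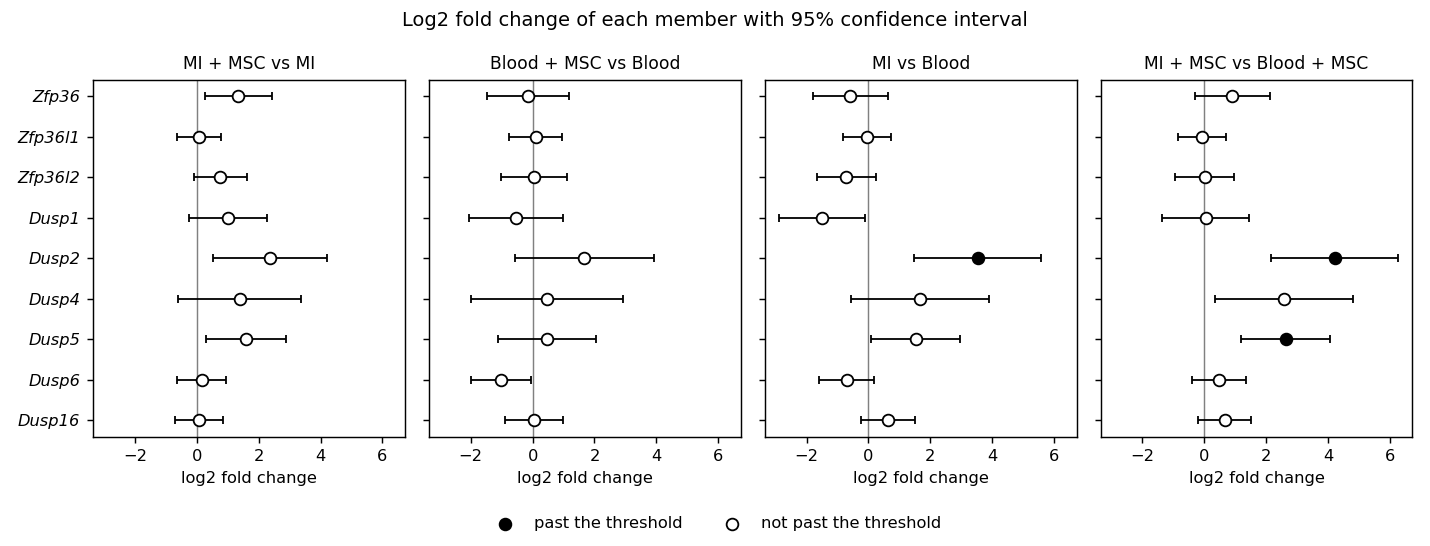
Log2 fold change of each gene (horizontal axis, log2(normalized count + 2) scale) in 4 comparisons, with 95% confidence intervals from limma over all 10 libraries. Filled points passed the threshold: Dusp2 in both heart to blood comparisons and Dusp5 in that with MSC. In the MI + MSC vs MI panel all points lie above 0 and none is filled.

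Of the 9 members, 5 ranked the cardiac libraries alike or nearly so. Zfp36 and Dusp2 were highest in MI + MSC 17, then in MI + MSC 15, MI + MSC 18, MI 20, MI 19 and MI 13. Zfp36l2, Dusp1 and Dusp5 had the same ranking with MI 20 and MI + MSC 18 exchanged. Dusp6, Dusp4, Zfp36l1 and Dusp16 each had a ranking of its own, and MI 13 was lowest in 8 of 9 members.

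Other measures followed a similar ranking. The summed neutrophil markers were 8209, 13555 and 2816 in MI + MSC and 2547, 8019 and 5975 in MI. This sum was highest in MI + MSC 17 and 15 and lowest in MI 13 and MI + MSC 18. Gene by gene the 11 markers did not move together: 5 had a log2 fold change above 0, 0 passed the threshold, and the median was -0.006. A list of 14 genes known to rise during enzymatic tissue dissociation, among them Fos, Jun and Egr1, summed to 23911, 33419 and 14784 in MI + MSC and to 8236, 15275 and 18021 in MI, with the same 3 highest libraries as Zfp36l2, Dusp1 and Dusp5. Of the 14, 12 had a log2 fold change above 0, 0 passed the threshold, and the median was 0.75. The heat shock genes of the list had lower means with MSC: Hspa1a averaged 703 in MI and 216 in MI + MSC, and Hspa1b 902 and 266. Monocyte and macrophage markers were lowest in MI 13 and highest in MI + MSC 18, and cardiomyocyte markers were highest in MI 19 and MI 13. Some marker sums separated the groups fully. Platelet markers (6 genes) were at 1748, 822 and 1222 in MI + MSC against 437, 615 and 604 in MI. Only 3 of these 6 genes had a log2 fold change above 0, with a median of -0.15, so the sum does not speak for the whole list. Mural markers (6 genes) were at 263, 422 and 628 in MI + MSC against 1093, 940 and 943 in MI. Endothelial markers were also lower in every MI + MSC library, at 420, 654 and 791 against 1866, 1837 and 2007. The part of cell make-up and of digestion in the differences of the members was not tested.

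**Figure D3:**
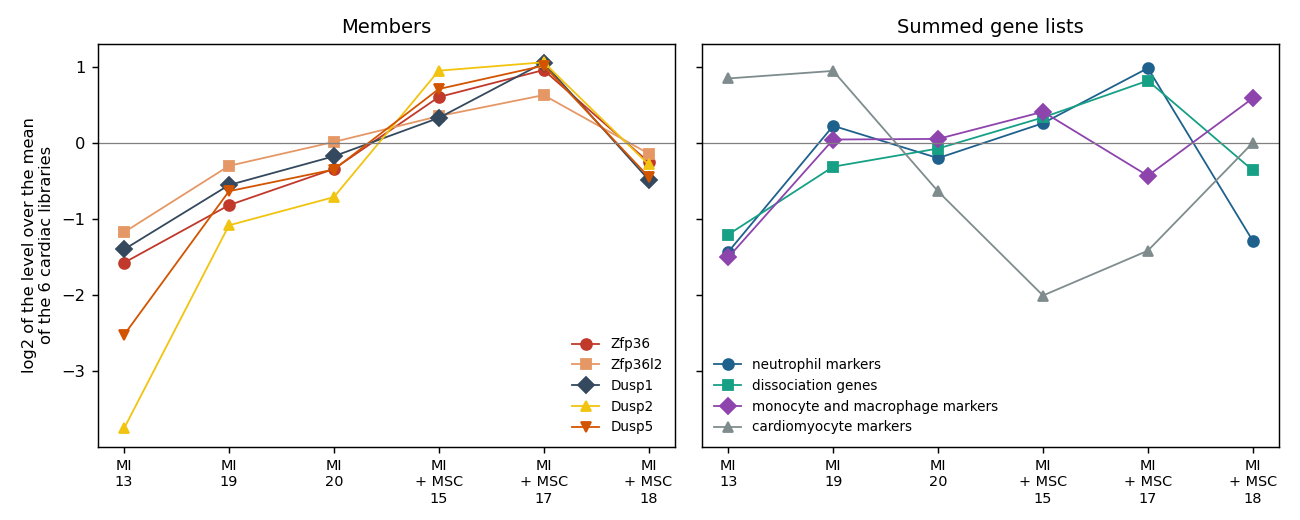
Level of 5 members (left) and of 4 summed gene lists (right) in the 6 cardiac libraries, as log2 of the level over the mean of these libraries. Lines join the points of each gene or list and imply no order of the libraries. The 5 members are highest in MI + MSC 17 and lowest in MI 13, as are the sums of the neutrophil markers and the dissociation genes.

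In blood, MSC treatment went with no call among the members, and with 0 of 11549 genes (0%) in limma. There was 1 member at an unadjusted p under 0.05 (848 of all genes, 7.34%), and edgeR, DESeq2 and limma-voom called 0 members each, and 0, 179 and 0 of all genes. That member was Dusp6, which was at 911 and 755 normalized counts in Blood and at 417 and 400 in Blood + MSC. The groups did not overlap, with means of 833 ± 111 and 408 ± 12.4 (SD, n = 2 each) and a log2 fold change of -1.02 (SE 0.44, 95% confidence interval -1.98 to -0.06, limma adjusted p = 0.672). Dusp6 was the only member with all Blood + MSC libraries below the Blood libraries, as were 15.4% of tested genes, and 0 members lay entirely above, against 21%. With 2 libraries a group, such separation is common. The summed neutrophil markers separated the blood groups too. Without MSC they were at 44703 (library 21) and 51413 (library 22) normalized counts, with MSC at 23422 (library 23) and 16718 (library 24). Of these 11 markers, 1 had a log2 fold change above 0, 0 passed the threshold, and the median was -1.48. Their part in the difference of Dusp6 was not tested.

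For the other members the blood groups overlapped. Dusp1 was at 5108 and 3956 in Blood and at 5004 and 1922 in Blood + MSC, where library 24 was lowest. Zfp36 was at 2473 and 1583 in Blood and at 2420 and 1319 in Blood + MSC (log2 fold change -0.15, 95% confidence interval -1.47 to 1.18). Zfp36l2 was at 1307 and 1440 against 1656 and 1210, and Zfp36l1 at 254 and 214 against 333 and 189. Dusp5 was at 106 and 40.9 against 128 and 66.6, and Dusp16 at 127 and 87.7 against 137 and 86.8. In Zfp36, Zfp36l1, Dusp1, Dusp5 and Dusp16, libraries 21 and 23 were above libraries 22 and 24. The summed dissociation genes had the same split, with 17176 and 15251 normalized counts in libraries 21 and 23 and 8852 and 7446 in libraries 22 and 24, and their part was not tested. Dusp2 gave 0 and 22 reads in Blood, which allows up to 21.2 normalized counts in Blood 21, and was at 22.6 and 11.4 normalized counts in Blood + MSC.

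Cells of the infarcted heart were then compared with those of blood, first without MSC. Here 34.7% of all tested genes passed the threshold, and 1 of 9 members, Dusp2, did. Dusp2 was at 16.8, 107 and 138 normalized counts in MI and at 0 and 14.3 in Blood, 12.2 times as high by the ratio of means, with a log2 fold change of 3.53 (SE 0.94, limma adjusted p = 0.0151). Dusp2 was also called by edgeR and DESeq2, with adjusted p of 0.00785 and 0.000525. It was not called by limma-voom (adjusted p = 0.112) or by limma fitted on the groups compared alone (adjusted p = 0.0654). All MI libraries lay above both Blood libraries, but MI 13 was at 16.8 normalized counts and the limit of Blood 21 at 21.2. Without Blood 21 the log2 fold change was 2.02 and the call was lost (limma adjusted p = 0.142).

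Dusp1 went the other way without passing. It was at 983, 1767 and 2296 normalized counts in MI and at 5108 and 3956 in Blood, with no overlap, a ratio of means of 0.371 and a log2 fold change of -1.5 (SE 0.64, limma adjusted p = 0.0858). DESeq2 and limma-voom called it lower, with adjusted p of 0.0194 and 0.0445, and edgeR did not call it (adjusted p = 0.0596). Dusp5 was at 75.6, 280 and 341 in MI against 106 and 40.9 in Blood, where MI 13 lay between the Blood libraries (log2 fold change 1.52, SE 0.66, limma adjusted p = 0.0922). DESeq2, edgeR and limma-voom called Dusp5 higher, with adjusted p of 0.0157, 0.0381 and 0.0378. The members called by limma-voom were thus Dusp1 and Dusp5, without Dusp2. Without MI 13, Dusp2, Dusp4 and Dusp5 passed, with log2 fold changes of 4.43, 2.89 and 2.19. Dusp4 was at 0 to 3.9 normalized counts in Blood and passed the filter only through its cardiac libraries, which largely set its direction. Of the members, 1 (Dusp2) lay entirely above blood, as did 31.6% of tested genes, and 3 (Zfp36l2, Dusp1 and Dusp6) entirely below, against 23.6%. The median log2 fold change of the members was -0.04, against 0.15 over all tested genes. Neutrophil markers differed in this comparison, with 9 of 11 called lower in the heart, and 8 of 8 cardiomyocyte markers were called higher. Their part in the differences of the members was not tested.

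In mice given MSC, Dusp2 and Dusp5 were higher in the heart than in blood. This was 2 of 9 members, against 14.1% of all tested genes. Dusp2 was at 436, 471 and 186 normalized counts in MI + MSC and at 22.6 and 11.4 in Blood + MSC, a ratio of means of 21.4 and a log2 fold change of 4.22 (SE 0.94, limma adjusted p = 0.0138). Dusp5 was at 709, 877 and 319 against 128 and 66.6, a ratio of 6.54 and a log2 fold change of 2.63 (SE 0.66, limma adjusted p = 0.0232). For both genes the lowest cardiac library was well above the highest blood library. In this comparison 3 of 11 neutrophil markers were called lower and 8 of 8 cardiomyocyte markers higher in the heart, and their part was not tested. The calls rested on both blood libraries: leaving out Blood + MSC 23 gave 4.66 and 3.09 with limma adjusted p of 0.0819 and 0.0954, and leaving out Blood + MSC 24 gave 3.78 and 2.18 with 0.106 and 0.169. Leaving out MI + MSC 15 or 17 ended the call of Dusp5, with adjusted p of 0.0727 and 0.0715.

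Dusp4 was at 31.8, 22.96 and 25.8 normalized counts in MI + MSC and at 2.63 and 2.86 in Blood + MSC, a ratio of means of 9.78. Its limma adjusted p was 0.109, and edgeR, DESeq2 and limma-voom called it, with adjusted p of 0.00121, 2.47e-05 and 9.1e-05. Dusp6 was also without overlap, at 646, 624 and 451 in MI + MSC against 417 and 400, but with a log2 fold change of only 0.47 (SE 0.40). Thus 4 members lay entirely above blood, against 33.8% of tested genes, and 0 entirely below, against 29.7%. Dusp1, Zfp36l2 and Zfp36l1 had log2 fold changes of 0.04, 0.01 and -0.08, with intervals of -1.35 to 1.43, -0.95 to 0.97 and -0.86 to 0.7.

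The make-up of the Dusp transcripts was compared as shares. Within each library, Dusp1 made up 57.7% to 68.4% of the per-kilobase sum of the 6 Dusp genes in the heart and 78.2% to 88.2% in blood. Dusp5 made up 7.05% to 16.9% in the heart and 1.14% to 3.63% in blood, and Dusp2 made up 1.83% to 12.1% against 0% to 0.728%. None of these 3 ranges overlapped between the tissues, while those of Dusp6, Dusp16 and Dusp4 did. Dusp6 made up 7.63% to 21.5% in the heart and 7.21% to 15.9% in blood, and Dusp16 1.23% to 3.30% and 0.685% to 1.33%. Dusp4 made up 0% to 0.964% and 0% to 0.134%. A larger share of any gene lowers the others, so the separations are not independent of each other. For Dusp2 the lowest cardiac share is that of MI 13, from 2 reads, under the detection limit of 3, and the lowest blood share that of Blood 21, from 0 reads. Without these libraries its shares were 5.45% to 12.1% and 0.465% to 0.728%. Within the heart, the share of Dusp2 was 1.83% to 5.78% in MI and 9.17% to 12.1% in MI + MSC, and that of Dusp6 was 17.8% to 21.5% in MI and 7.63% to 14.3% in MI + MSC. Among the Zfp36 genes, Zfp36 itself made up 55.6% to 57.0% of the sum in MI and 62.7% to 71.0% in MI + MSC, and Zfp36l1 made up 9.22% to 11.7% and 4.03% to 7.5%. A lower share is not a lower level here. The mean normalized counts of Dusp6 were 545 in MI and 574 in MI + MSC, and those of Zfp36l1 238 in both. Shares do not depend on the size factors, and they are given as a description with no test.

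**Figure D4:**
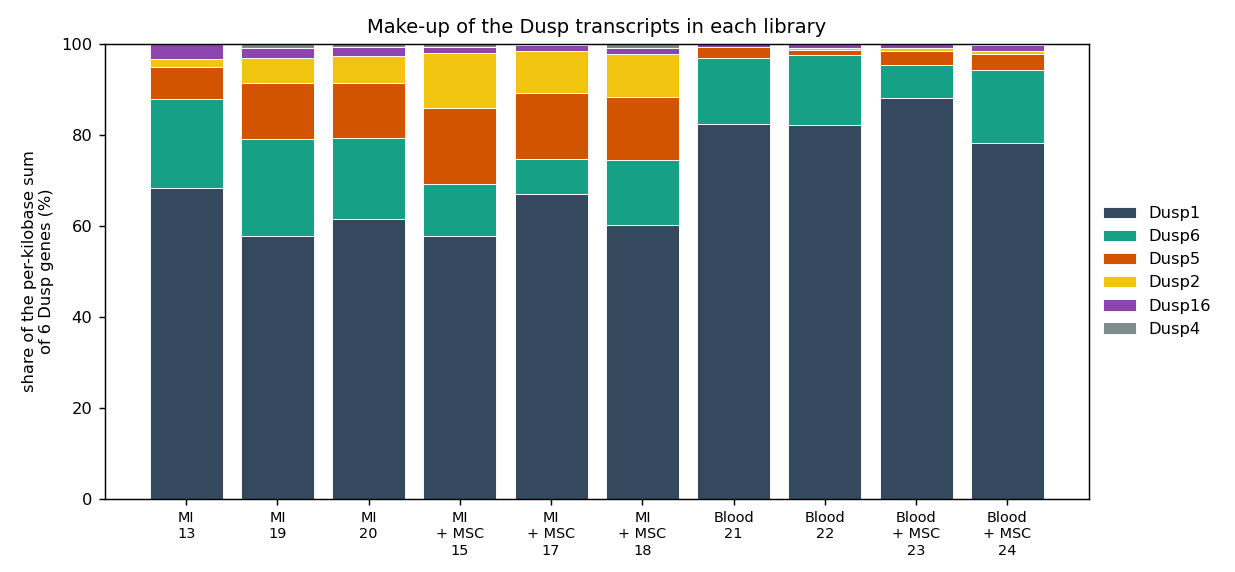
Share of each Dusp gene (vertical axis, percent of the per-kilobase sum of the 6 genes) in the 10 libraries (horizontal axis). Dusp1 takes 57.7% to 68.4% of the bar in cardiac libraries and 78.2% to 88.2% in blood, and Dusp2 and Dusp5 are larger in every cardiac library than in any blood library.

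Whether the difference with MSC differed between heart and blood was tested as an interaction. None of the 9 members passed, as was the case for all tested genes (0%), while 838 genes and 0 members had an unadjusted p under 0.05. With DESeq2 and limma-voom, 3 and 2 members had an unadjusted p under 0.05 and 0 were called, and edgeR gave 0 of both. Over all tested genes DESeq2 called 20 and the other tools 0. The largest estimates were 1.54 (SE 0.90) for Dusp1, 1.49 (SE 0.78) for Zfp36 and 1.18 (SE 0.57) for Dusp6, with limma adjusted p of 0.631, 0.63 and 0.63. The intervals were wide, from -0.22 to 3.2 for Zfp36 and from -0.07 to 2.42 for Dusp6.

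The other genes of the pathway were followed as lists, whose tested members are those over the same filter. As over all genes, none on the 7 lists passed the limma threshold for MSC in heart or blood or for the interaction. Transcripts known to be destabilised by ZFP36 (12 of 15 tested) had a median log2 fold change of 1.56 between MI + MSC and MI, with 11 above 0, and of 0.33 in blood. The study named Tnf, Cxcl1 and Cxcl2 of this list from these samples, so its direction is not independent evidence. The summed level of the list was 22092, 29569 and 9436 normalized counts in MI + MSC and 3950, 7987 and 9514 in MI, which is the ranking of libraries seen for Zfp36l2, Dusp1 and Dusp5. Of its 15 genes, 14 held the heptamer and 8 the nonamer, against 31.3% and 8.75% of coding genes of the table. The list was chosen as known targets of ZFP36, which binds AU-rich elements, so these counts are a description and no support. The summed targets and Zfp36 itself were both highest in MI + MSC 17 and 15 and lowest in MI 13.

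Between heart and blood, 6 of the 12 were higher in MI and 8 in MI + MSC, with medians of 1.72 and 2.72 and none lower. Of all tested genes, 21.2% were called higher in MI than in Blood and 8.23% in MI + MSC than in Blood + MSC. Among them, Il23a, the specific subunit of interleukin 23, averaged 27.2 normalized counts in MI against 0.65 in Blood, a log2 fold change of 3.39 (limma adjusted p = 0.00451), and 91.0 against 0.515 with MSC, a log2 fold change of 4.92 (limma adjusted p = 0.00148). Tnf averaged 465 against 107 without MSC, a log2 fold change of 2.40 (limma adjusted p = 0.0165), and 2143 against 88.2 with MSC, a log2 fold change of 4.4 (limma adjusted p = 0.00186). Cxcl1 and Il10 were the others of the largest 4 in both comparisons, with log2 fold changes of 3.73 and 3.44 without MSC. Il23a, Cxcl1 and Il10 averaged under 10 normalized counts in both blood groups and passed the filter only through their cardiac libraries. Their direction was therefore largely set by the filter.

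Sprouty and Spred proteins and Errfi1 are feedback inhibitors that act upstream of ERK. Of 6 tested, 5 were higher in the heart without MSC and 5 with it, and none lower, against 21.2% and 8.23% of all tested genes, with medians of 2.03 and 1.74. Spry1 was at 26.7 normalized counts in MI and at 0 reads in Blood, which allows up to 21.2 in Blood 21, Errfi1 at 105 and 14.3 (log2 fold change 2.77, limma adjusted p = 0.00175), Spry4 at 33.4 and 7.39 and Spred2 at 68.7 and 21.3. Of these, Spry1 is also expressed by vascular and muscle cells, whose markers were high in the same libraries, and their part was not tested. Spry1 and Spry4 averaged under 10 normalized counts in both blood groups and passed the filter only through their cardiac libraries. For these genes the direction counted above was therefore largely set by the filter. Among 6 other tested dual-specificity phosphatases, Dusp8 and Dusp22 were higher in MI than in Blood (3.58 and 1.47) and Dusp8 in MI + MSC than in Blood + MSC (2.29). Dusp8 averaged 26.2 normalized counts in MI against 0.325 in Blood, and 17.7 against 1.84 with MSC. It passed the filter only through its cardiac libraries, which largely set its direction. Dusp22 averaged 46.9 in MI against 19.5 in Blood.

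Of 20 MAP kinase pathway kinases, 4 were lower and 2 higher in MI than in Blood, and 4 lower and 0 higher with MSC. The shares of all tested genes called lower were 13.5% and 5.85%, and of those called higher 21.2% and 8.23%. Mapk13, the p38 delta kinase typical of neutrophils, averaged 9.78 normalized counts in MI against 181 in Blood, a log2 fold change of -3.83 (limma adjusted p = 0.000181). Mapk14, the p38 alpha kinase, averaged 156 against 531, a log2 fold change of -1.77 (limma adjusted p = 0.00183). Map3k5, an activator of p38 and JNK, was lower by -1.43 without MSC and -1.9 with it. Mapk12, the p38 gamma kinase of muscle, was higher in MI at 25.7 against 2.60, a Blood mean under the filter of 10 normalized counts.

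Of 20 deadenylation and decapping genes, Cnot9 was higher (1.64) and the decapping helicase Ddx6 lower (-1.53) in MI than in Blood, and Ddx6 was lower with MSC too (-1.42), with medians of the list of -0.13 and -0.31 against 0.15 and 0.09 over all genes. The list summed to 1580 to 2190 normalized counts in cardiac libraries and 2120 to 3247 in blood, with no overlap between MI + MSC (1769 to 1908) and Blood + MSC (2592 and 3083). Of 12 other RNA-binding regulators of mRNA stability, Zc3h12c was higher in the heart in both comparisons (1.94 and 1.88), and Arid5a and Rc3h2 were lower without MSC (-1.26 and -1.08). Of the 14 dissociation genes, 4 were higher in both comparisons, led by the heat shock genes Hspa1a (5.37) and Hspa1b (5.16) without MSC, with Fosb and Atf3, and 1 was lower without MSC. Beside these counts, 21.2% of all tested genes were called higher and 13.5% lower without MSC, and 8.23% and 5.85% with it.

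For each member, the 3 tested genes most like it were found by Pearson correlation of log2(normalized count + 2) over the 10 libraries, given as a description since all points share their libraries and MI 13 and the tissues set much of it. Zfp36 was most like Pnrc1 (0.984), Junb (0.982) and Nfe2l2 (0.97), where Junb is an AP-1 subunit and an early response gene. Dusp1 was most like Il1b (0.976), Itprip (0.969) and H3f3b (0.965), and Dusp5 like Ier3 (0.99), Gadd45b (0.984) and Skil (0.981). Ier3 is on the list of transcripts destabilised by ZFP36. Zfp36l2 was most like Kctd12 (0.978), Fnip1 and Gpbp1, and Dusp2 like Zfp655 (0.979), Vps18 and Etf1. Dusp4, with 0 to 47 reads, was most like Mad2l1 (0.993), Lif and Akap17b.
The likeness was lower for the others: Dusp16 with Golm1 (0.959), Hnrnpa2b1 and Gm56633, Dusp6 with Fam53c (0.917), Trim30c and Scarna2, and Zfp36l1 with Purb (0.836), Ddx3x and Arl15. The 100th most like gene still had 0.857 for Zfp36 and 0.907 for Dusp2, so many genes shared these patterns.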

How the data were processed

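Stranded paired-end libraries were made from Ly6G+ cell RNA after ribosomal depletion. According to the study's methods and the submitters' processing notes, the authors trimmed reads with Trimmomatic, removed duplicates with Picard, mapped to GRCm39 with STAR, counted with featureCounts by strand, dropped reads of mitochondrial genes and divided the counts by DESeq2 size factors. The deposited values are therefore a signal, normalized read counts, equal in both tables although the file name of the second says raw. All values (100%) were whole multiples of 1 read within 0.05 read, so reads were recovered. They ranged from 148594 to 8602711 per library, and 3 reads were taken as the detection limit, which covers counting error only. Duplicate removal lowers the highest counts.

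The 11549 genes averaging 10 or more normalized counts were fitted on the log2(normalized count + 2) scale with limma 3.58.1 (trend over mean level), with 1 mean per group over all 10 libraries. Fold changes are on this scale, on which those of low genes can be smaller or larger than in the count models. For Dusp4, MI + MSC against MI gave 1.39 here and 0.45 with DESeq2. For MI against Blood the same gene gave 1.67 here and 2.60 with DESeq2. Calls needed a Benjamini-Hochberg adjusted p under 0.05 over all genes and a log2 fold change of 0.5 or more in size, for the interaction the p alone. edgeR 4.0.16, DESeq2 1.42.0 and limma-voom on recovered reads, other pseudocounts, filters and scalings, and leaving out each library were alternatives. The limma, edgeR and DESeq2 fits of both MSC comparisons were tested on simulated data. R 4.3.3 and Python 3.11.15 were used. Exon lengths and 3′ UTRs are from GENCODE for GRCm39, promoters from RefSeq GRCm38.p6.

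The batch given in the labels coincides with the group, so batch and group cannot be told apart. The members and gene lists were chosen with earlier results of these data known. Named besides the 9 members are, on each list and comparison, up to 4 called genes with the largest absolute log2 fold change, and the 3 genes most correlated with each member. Sums of B cell markers were 23.0 to 342 and of T cell markers 6.04 to 118 normalized counts, and fibroblast and mural markers summed to 498 to 1540 and 63 to 1093.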

Additional observations from a re-analysis of the deposited data

How the results depend on the processing

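With no member called for MSC in the heart, in blood or for the interaction, the calls of 0 held under all alternatives except limma-voom, which called 1 member, Dusp2, in the heart. Between MI and Blood, 1 member was called, against 4 with DESeq2, 3 with edgeR, 3 with library size scaling, 2 with limma-voom, 0 when fitted on the groups compared alone and 3 without the 2 shallowest libraries, MI 13 and Blood 21, an alternative chosen after seeing the data, as was the canonical transcript length for levels per kilobase. Leaving out each library gave 0 to 3, with 0 without Blood 21 and 3 without MI 13. Between MI + MSC and Blood + MSC the 2 calls became 0 to 3 on leaving out each library, 0 without Blood + MSC 23 or 24, 1 without MI + MSC 15 or 17 and 3 without MI 13. Of 931 single-gene alternatives over 45 results, 832 kept direction and side of the threshold, 20 gained and 9 lost a call, and 70 turned direction, 0 of them in a called result. The causes were not tested. Library size scaling moved the median of all genes between MI and Blood from 0.15 to 0.63, so its values include that shift.

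Log2 fold changes that turned direction are given by setting. For MI + MSC against MI, Zfp36l1 was -0.075 with DESeq2, -0.0541 with edgeR, -0.0605 with library size scaling, -0.0444 with limma-voom and -0.18 without the 2 shallowest libraries. Dusp16 there was -0.0581 with library size scaling, -0.0068 with limma-voom and -0.12 without the 2 shallowest libraries, where Dusp6 was -0.25. For Blood + MSC against Blood, Dusp4 was -0.28 with DESeq2, -0.26 with edgeR, -0.40 with limma-voom and -0.31 without the 2 shallowest libraries, Zfp36 was 0.15 with library size scaling and 0.17 without those libraries, and Zfp36l2 was -0.0244 without them. For MI against Blood, Zfp36l1 was 0.10 with DESeq2, 0.0454 with edgeR, 0.48 with library size scaling, 0.0035 with limma-voom and 0.33 without the 2 shallowest libraries, where Zfp36 was 0.0661. For MI + MSC against Blood + MSC, Zfp36l2 was -0.0854 with TMM scaling, -0.0715 with edgeR and -0.0075 with limma-voom, Dusp1 was -0.0552 with TMM scaling and -0.0866 with edgeR, and Zfp36l1 was 0.0123 with library size scaling. The interaction of Dusp16 was -0.0063 with DESeq2, -0.0221 with TMM scaling, -0.13 with edgeR, -0.40 with library size scaling, -0.15 with limma-voom and -0.43 without the 2 shallowest libraries, where that of Dusp5 was -0.22.

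Leaving out each library in turn gave these ranges where a direction or call changed. For MI + MSC against MI they were -0.18 to 0.36 for Zfp36l1, -0.25 to 0.37 for Dusp6 and -0.22 to 0.41 for Dusp16. For Blood + MSC against Blood they were -0.58 to 0.29 for Zfp36, -0.30 to 0.51 for Zfp36l1, -0.18 to 0.27 for Zfp36l2, -1.22 to 0.15 for Dusp1, -0.31 to 1.25 for Dusp4, -0.19 to 1.14 for Dusp5 and -0.28 to 0.37 for Dusp16. For MI against Blood they were -0.33 to 0.21 for Zfp36l1, 2.02 to 5.04 for Dusp2, 0.89 to 2.89 for Dusp4 and 0.86 to 2.19 for Dusp5. For MI + MSC against Blood + MSC they were -0.48 to 0.33 for Zfp36l1, -0.21 to 0.24 for Zfp36l2, -0.65 to 0.73 for Dusp1, 3.78 to 4.66 for Dusp2, 2.47 to 2.69 for Dusp4 and 2.18 to 3.09 for Dusp5. For the interaction they were -0.44 to 0.37 for Zfp36l1, -0.82 to 2.20 for Dusp2, -0.30 to 1.70 for Dusp4 and -0.29 to 0.37 for Dusp16.

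A filter of at least 20 normalized counts left no value for Dusp4, and the interaction was not fitted on the groups compared alone, which lack the other tissue. No paired analysis was possible because the groups share no library numbers, so any mouse shared by heart and blood is not accounted for. At 148594 and 268860 reads, MI 13 and Blood 21 limit what low genes such as Dusp2 and Dusp4 can show.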
